A study of Mus musculus with 8 samples.

Results

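The genes described here encode the machinery that brings newly made proteins into the endoplasmic reticulum (ER), cuts off their signal peptides and attaches N-linked glycans. They were chosen by name as subunits of known complexes, and all 33 were found among the 24537 genes of the count table. RNA was measured by poly(A) RNA-seq in pancreatic islets, which hold the insulin-producing beta cells and the other endocrine cells of the pancreas, from male mice aged 12 weeks. There were 4 WT and 4 Wfs1KO samples, with no treatment. Wfs1 is the gene of wolframin, which resides in the ER membrane and whose loss causes Wolfram syndrome, a disease with diabetes. The Wfs1 allele, the mouse strain and whether a sample pooled animals are not given in the sources used here.

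A secretory protein such as insulin is recognised by the signal recognition particle (SRP) as its signal peptide leaves the ribosome. The SRP receptor hands the ribosome to the SEC61 channel, through which the chain is threaded while it is still being made. SEC62, SEC63, TRAM and the translocon-associated protein (TRAP) complex assist the channel, each for some of its substrates. Signal peptidase cuts off the signal peptide, and the oligosaccharyltransferase (OST) transfers a preassembled glycan to asparagine residues of the chain. Beta cells of the islet pass large amounts of preproinsulin through this route.

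The libraries held 15810830 to 27057617 reads in exons. Principal component 1 parted replicates 1 and 2 from replicates 3 and 4 in both genotypes, and component 2 parted the genotypes. What the replicate numbers mark is not given, so p-values measure the spread between these samples. In CPM, which are counts scaled to a common library size, Wfs1 was at 182, 156, 190.0 and 187 in the 4 WT libraries, here and below in the order of replicates 1 to 4, and at 101, 105, 125 and 98.8 in the 4 Wfs1KO libraries (log2 fold change -0.74, SE 0.08, adjusted p = 5.06e-05). Wfs1 reads remained in every Wfs1KO library, and the counts do not show from which exons they came. Islet identity was clear from the hormones, since Ins1 and Ins2 together took 13.0 to 17.2% of exon counts in WT and 8.37 to 11.1% in Wfs1KO. Of 10 beta cell markers 8 fell and 1 rose, and of 12 endothelial markers 11 rose, with summed shares of 0.0606 to 0.0655% in WT and 0.0865 to 0.104% in Wfs1KO. Stellate cell and fibroblast markers, of which 3 of 10 rose, took 0.0188 to 0.0262% and 0.0318 to 0.0402%. Of the 3 markers of delta and PP cells, which are other endocrine cells, Sst and Hhex rose (log2 fold changes 0.39 and 0.33), with summed shares of 0.381 to 0.474% and 0.460 to 0.711%. Of 5 markers of alpha cells, also endocrine, 0 passed edgeR's test, with 1 higher at an unadjusted p under 0.05. They took 1.59 to 1.95% in WT and 1.92 to 2.74% in Wfs1KO. All 9 macrophage markers had a positive log2 fold change (median 0.40) and 0 passed, with shares of 0.0214 to 0.0369% and 0.0221 to 0.0599%. Markers of the exocrine acinar cells, which make digestive enzymes, took 3.88 to 8.27% and 1.3 to 8.33%, and 0 of 23 tested passed edgeR's test, with 0 at an unadjusted p under 0.05. The only marker at 0 counts in a library was the acinar amylase gene Amy2a5. In such bulk samples, fewer cells of a type and less RNA per cell cannot be told apart.

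RNA of the translocation, signal peptidase and glycosylation machinery was higher in Wfs1KO islets, with at least 1 gene that rose in each of the 8 complexes or groups of subunits. Of the 33 genes 27 rose, 0 fell and 6 did not pass, where a gene is said to rise or fall if its adjusted p was under 0.05. At an unadjusted p under 0.05, 29 were higher and 0 lower in edgeR's test, and 0 fell with DESeq2 or limma-voom. Across the 15733 tested genes 18.9% changed, of which the risers were 10.4% and the fallers 8.49% of all tested. The median log2 fold change of the 33 genes was 0.44, against 0.01 for all tested genes. The rises were modest, from 1.18-fold for Srp14 to 1.66-fold for Ssr3, and 6 genes exceeded 1.5-fold. In 27 genes every Wfs1KO library lay above every WT library, which held for 12.3% of all tested genes. These 27 include Sec61g, which did not pass, and leave out Srp14, which passed. In the authors' deposited table the same 27 genes had an adjusted p under 0.05, all higher in Wfs1KO.

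Summed over the 33 genes, the machinery took 0.555 to 0.585% of exon counts in WT and 0.791 to 0.879% in Wfs1KO. The sums were 6028, 5484, 6124 and 6160.2 CPM in WT and 7864, 7828, 8314 and 7998 CPM in Wfs1KO. The genotypes did not overlap, and the ratio of the means was 1.34. In replicates 1 and 2 alone 25 genes rose and the median was 0.42, and in replicates 3 and 4 alone 27 rose and the median was 0.40. With the acinar markers' summed level as a covariate 26 genes rose, all but Srp14. The endothelial and stellate cell markers were higher in all 4 Wfs1KO libraries than in WT, and the delta and PP cell markers in 3 of the 4. The shares of alpha cell and macrophage markers overlapped between genotypes. The part of these markers in the result for any complex described here was not tested.

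**Figure D1:**
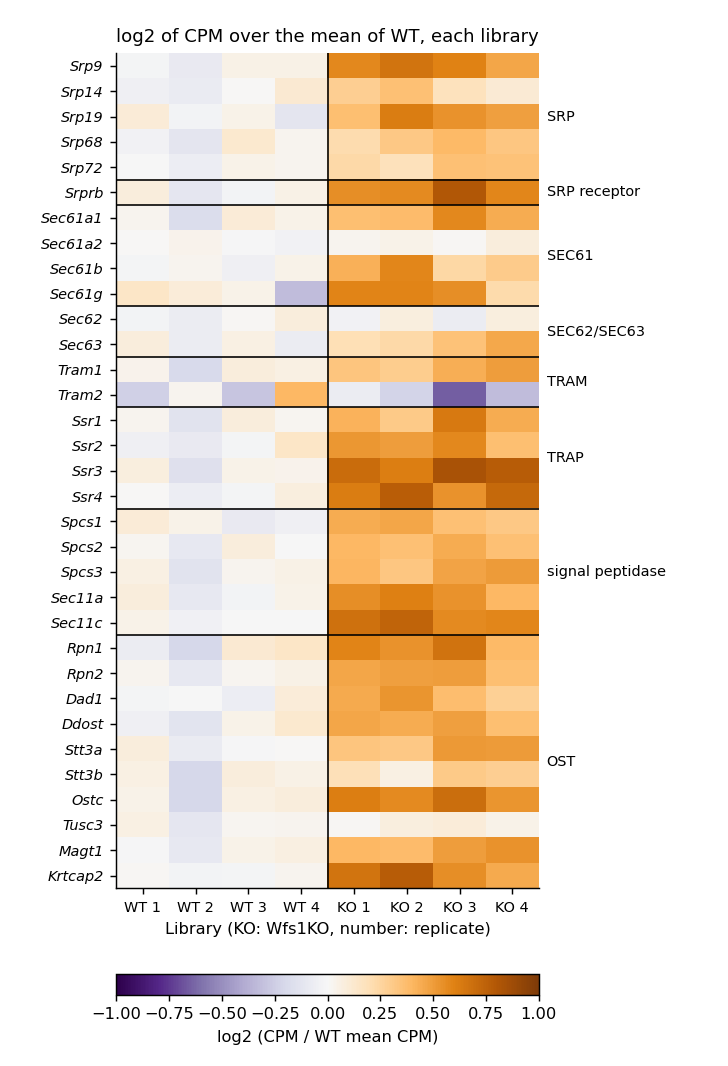
Level of each of the 33 genes in each library, as the log2 of its CPM over the mean CPM of the 4 WT libraries. Columns are the 4 WT and 4 Wfs1KO libraries, rows are grouped by complex, and orange marks values above the WT mean; the rows of Sec61a2, Sec62 and Tusc3 stay near the WT mean in all 8 libraries.

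RNA of the targeting step was higher. All 5 SRP protein genes in the set rose, with a median log2 fold change of 0.31, the smallest median among the complexes in which every gene rose. Srp9 (NM_012058, chromosome 1, 182124737 to 182132415 in mm10, plus strand), whose product forms with that of Srp14 the part of the particle that slows elongation, stood at 46.5, 44.2, 48.8 and 48.6 CPM in WT. The Wfs1KO libraries stood at 70.1, 74.2, 71.1 and 64.9 CPM, all above WT (1.49-fold, log2 fold change 0.58, SE 0.06, adjusted p = 1.68e-05). Its partner Srp14 (NM_009273, chromosome 2, 118475843 to 118479696, minus strand) stood at 66.3, 64.9, 68.6 and 74.1 CPM in WT and 83.4, 87.8, 77.2 and 73.6 CPM in Wfs1KO. Here the genotypes overlapped, with Wfs1KO replicate 4 just below WT replicate 4, and the gene passed (log2 fold change 0.23, SE 0.07, adjusted p = 0.0231). Its call was lost without any of WT replicates 1, 2 and 3 or Wfs1KO replicates 1 and 2 (adjusted p 0.0536 to 0.0741), with the acinar covariate (0.0595) and in replicates 3 and 4 alone (0.63, log2 fold change 0.07). Of the transcript of Srp9, 18.5% is at least 95% identical to that of the pseudogene Gm13736, so reads may be shared.

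Srp19, whose product helps to assemble the particle on its RNA, stood at 26.3, 24.2, 25.3 and 22.7 CPM in WT and 31.6, 37.8, 35.7 and 34.5 CPM in Wfs1KO. Every Wfs1KO library was above every WT library (1.42-fold, log2 fold change 0.50, SE 0.07, adjusted p = 2.48e-04). The remaining SRP genes encode the heterodimer of the particle's large proteins and rose with log2 fold changes of 0.31 and 0.28. Srp68 averaged 168 ± 11.8 CPM in WT and 208 ± 10.3 CPM in Wfs1KO (adjusted p = 0.00263), and Srp72 averaged 234 ± 7.92 CPM in WT and 284 ± 17.4 CPM in Wfs1KO (adjusted p = 0.00376; each ± is the SD of n = 4). Srp72 did not pass in replicates 1 and 2 alone (adjusted p = 0.0611).

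Srprb (NM_009275, chromosome 9, 103188033 to 103202065, minus strand) encodes the membrane-anchored subunit of the SRP receptor. It stood at 85.8, 74.9, 79.4 and 83.8 CPM in WT and 119, 119.8, 141 and 121 CPM in Wfs1KO. Replicate 3 was the highest of the Wfs1KO libraries, and all 4 lay above WT (1.54-fold, log2 fold change 0.63, SE 0.07, adjusted p = 3.04e-05). Exons of Srprb share 888 bases with Gm20425, a gene on the same strand. The other receptor subunit, Srpr, was among the related genes described further on and rose by a similar amount (1.53-fold).

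Of the 4 genes of the SEC61 channel, Sec61a1 and Sec61b rose, and Sec61a2 and Sec61g did not pass (median log2 fold change 0.42). Sec61a1 (NM_016906, chromosome 6, 88503607 to 88518800, minus strand) encodes the pore-forming alpha subunit. Its level was 370.1, 322, 389 and 374 CPM in WT and 469, 473, 541 and 494 CPM in Wfs1KO. The Wfs1KO libraries lay wholly above WT (1.36-fold, log2 fold change 0.44, SE 0.07, adjusted p = 6.86e-04). Sec61b, the beta subunit gene, averaged 53 ± 1.6 CPM in WT and 69.5 ± 7.34 CPM in Wfs1KO (SD, n = 4, adjusted p = 0.00141). Sec61a2 (NM_021305, chromosome 2, 5870987 to 5895353, minus strand), which encodes the other alpha subunit, stood at 22.2, 22.7, 21.9 and 21.6 CPM in WT and 22.6, 22.7, 22.3 and 23.4 CPM in Wfs1KO. The genotypes overlapped, the log2 fold change was 0.04 and its 95% interval ran from -0.08 to 0.17 (adjusted p = 0.681). Of the exon bases of Sec61a2 over all annotated transcripts, 19.9% overlap those of Nudt5 on the other strand. In the transcript matched to the counted entry the share was 37.1%. Reads were counted with no strand option set, so reads of Nudt5 may be among those of Sec61a2.

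Sec61g, the gamma subunit gene, had few reads. Its levels, given after they were seen, were 3.05, 2.94, 2.83 and 2.21 CPM in WT and 4.16, 4.16, 4.04 and 3.21 CPM in Wfs1KO. All 4 Wfs1KO libraries lay above WT, but the gene did not pass (log2 fold change 0.50, SE 0.17, adjusted p = 0.0589, 95% interval 0.13 to 0.87). Stretches at least 95% identical over at least 100 bases to transcripts of other genes cover 47.9% of its transcript and 84% of that of Sec61b. How reads that fit several places were counted is not given in the sources used here, so the levels of both genes are uncertain. The summed level of the 4 SEC61 genes was 442 ± 27.5 CPM in WT and 590.3 ± 27.7 CPM in Wfs1KO (SD, n = 4), a ratio of 1.34.

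The partners of the channel split. Sec63 encodes a J-domain protein that brings the chaperone BiP to the channel, and it rose (221 ± 12.8 CPM in WT and 274 ± 22.2 CPM in Wfs1KO, SD, n = 4, adjusted p = 0.00498). In replicates 1 and 2 alone it did not pass (adjusted p = 0.122). Sec62 (NM_027016, chromosome 3, 30792876 to 30821263, plus strand), whose product works with SEC63 on chains that enter after synthesis, stood at 303, 292, 311 and 326 CPM in WT and 301, 324, 292 and 325 CPM in Wfs1KO. The 2 ranges lay almost on top of each other, with a log2 fold change of 0.01 (95% interval -0.12 to 0.14, adjusted p = 0.919). Under 7 alternatives the estimate turned negative without passing, the lowest being -0.055 in replicates 3 and 4 alone.

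Tram1 (NM_028173, chromosome 1, 13564693 to 13589910, minus strand) encodes a membrane protein beside the channel that contacts some signal peptides. Its level was 392, 333, 406 and 399.8 CPM in WT and 481, 468, 516 and 541 CPM in Wfs1KO. No library of 1 genotype reached the range of the other (1.31-fold, log2 fold change 0.39, SE 0.07, adjusted p = 0.00218). Its paralogue Tram2 stood at 2.15, 2.59, 2.09 and 3.34 CPM in WT and 2.41, 2.18, 1.61 and 2.03 CPM in Wfs1KO, with as few as 28 reads in a library. The genotypes overlapped, and the interval of the log2 fold change was wide (-0.30, 95% interval -0.79 to 0.19, adjusted p = 0.406).

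**Figure D2:**
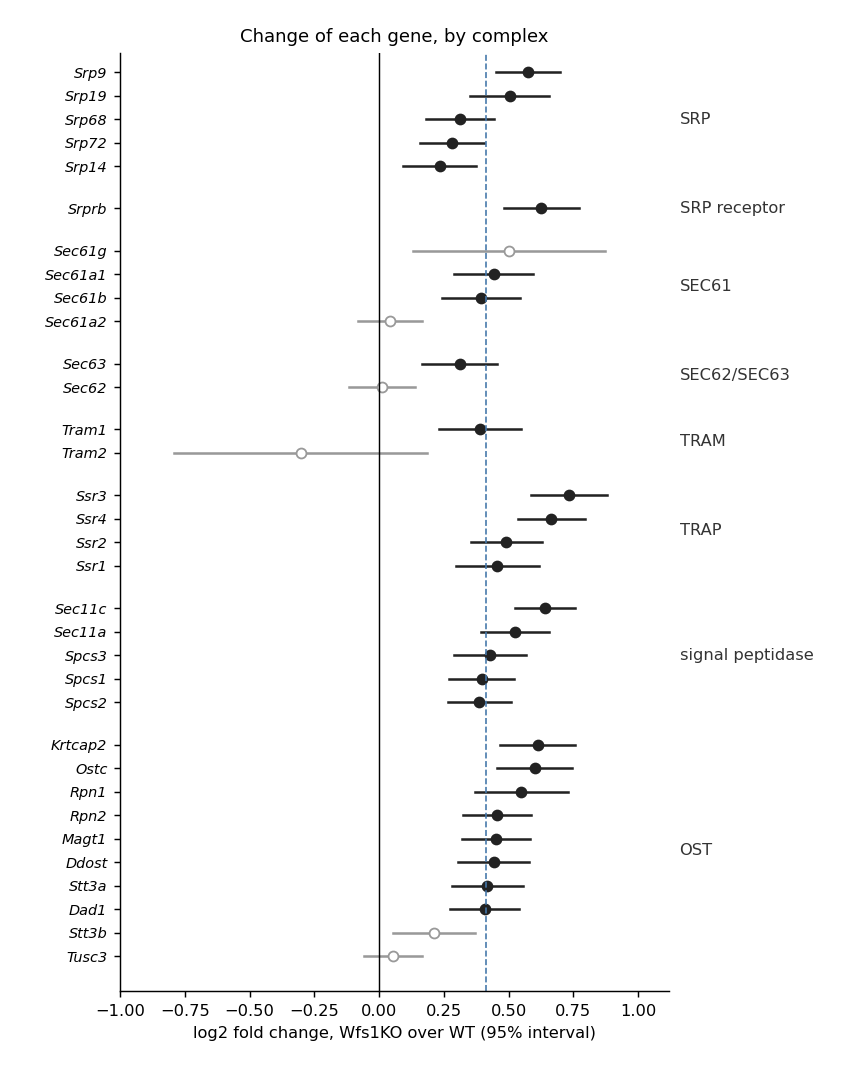
Log2 fold change of each gene, Wfs1KO over WT, with its 95% interval, grouped by complex. Filled points are genes with an adjusted p under 0.05 and open points are the 6 that did not pass; the dashed line is the median of all tested genes that rose (0.41), and the widest intervals belong to the low-count genes Tram2 and Sec61g.

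The TRAP complex, which sits beside SEC61 and helps chains with weak signal peptides to enter, had the highest median log2 fold change of the complexes with more than 1 gene (0.58), and all 4 of its genes rose. Whether it differs from the other complexes was not tested. Summed over the 4 genes, TRAP stood at 861, 774, 866 and 876 CPM in WT and 1252, 1213, 1355 and 1279.6 CPM in Wfs1KO. The lowest Wfs1KO sum was well above the highest WT sum, and the ratio of means was 1.51. Ssr3 (NM_026155, chromosome 3, 65379657 to 65392553, minus strand), the gamma subunit gene, had the largest change of the 33 genes. It stood at 305, 261, 299 and 297 CPM in WT and 472, 443, 517 and 499 CPM in Wfs1KO (1.66-fold, log2 fold change 0.73, SE 0.07, adjusted p = 9.31e-06).

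Ssr4 (NM_001166480, chromosome X, 73787028 to 73790828, plus strand), the delta subunit gene, stood at 132, 125, 129.6 and 139 CPM in WT and 202, 224, 191 and 216 CPM in Wfs1KO. All Wfs1KO libraries were above all WT libraries (1.59-fold, log2 fold change 0.67, SE 0.06, adjusted p = 7.47e-06). Ssr2 (NM_025448, chromosome 3, 88579671 to 88588413, plus strand), the beta subunit gene, stood at 131, 127, 133 and 149 CPM in WT and 193, 190.2, 201 and 174 CPM in Wfs1KO. The gap was smaller than for Ssr4, with WT replicate 4 the highest of WT, and again the genotypes did not overlap (1.4-fold, log2 fold change 0.49, SE 0.06, adjusted p = 1.35e-04). Ssr1, the alpha subunit gene, averaged 288 ± 18.6 CPM in WT and 395 ± 37.8 CPM in Wfs1KO (SD, n = 4, adjusted p = 7.23e-04).

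The start region of Ssr1 is shown as that of a TRAP gene that holds GCCACGT, from RefSeq on GRCm38.p6, from 250 bases before to 50 bases after the annotated start. Capitals mark GCCACGT.
Ssr1 (chr13:37994159-37994458, minus strand): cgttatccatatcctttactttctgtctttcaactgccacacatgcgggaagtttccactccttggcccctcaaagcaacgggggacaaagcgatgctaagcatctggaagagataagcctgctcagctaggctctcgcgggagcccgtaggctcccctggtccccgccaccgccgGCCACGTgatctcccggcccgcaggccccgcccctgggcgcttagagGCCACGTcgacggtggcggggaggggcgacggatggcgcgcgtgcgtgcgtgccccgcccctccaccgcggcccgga
The GCCACGT matches begin 74 and 27 bases before the start. Ssr1 had the smallest log2 fold change of the TRAP genes (0.46). The window of Ssr3, which had the largest (0.73), held 1 such match, 191 bases before the start, and that of Ssr4 held 0. No window was found for Ssr2. Windows were found for 24 of the 33 genes. Both strands were searched, and for GCCACGT only after the other motifs had been counted. It stood in 5 of these 24 genes (20.8%), against 2.95% of 27025 genes with a window. The 5 are Srprb, Sec63, Ssr1, Ssr3 and Spcs1, and the difference in share was not tested. CCAAT stood in 13 of 24 (54.2%) against 41.1%. Of the known stress-response elements, the UPRE core TGACGTGG stood in 0 of 24 (0.714% of all genes). The ERSE, which is CCAAT followed after 9 bases by CCACG, also stood in 0 of 24 (0.137%). An ATF4 composite site, written as TGATG and AAT parted by 1 base, stood in 0 of 24 (1.08%). A match says only that these letters lie in the window, and the absence of a match only that they do not.

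**Figure D3:**
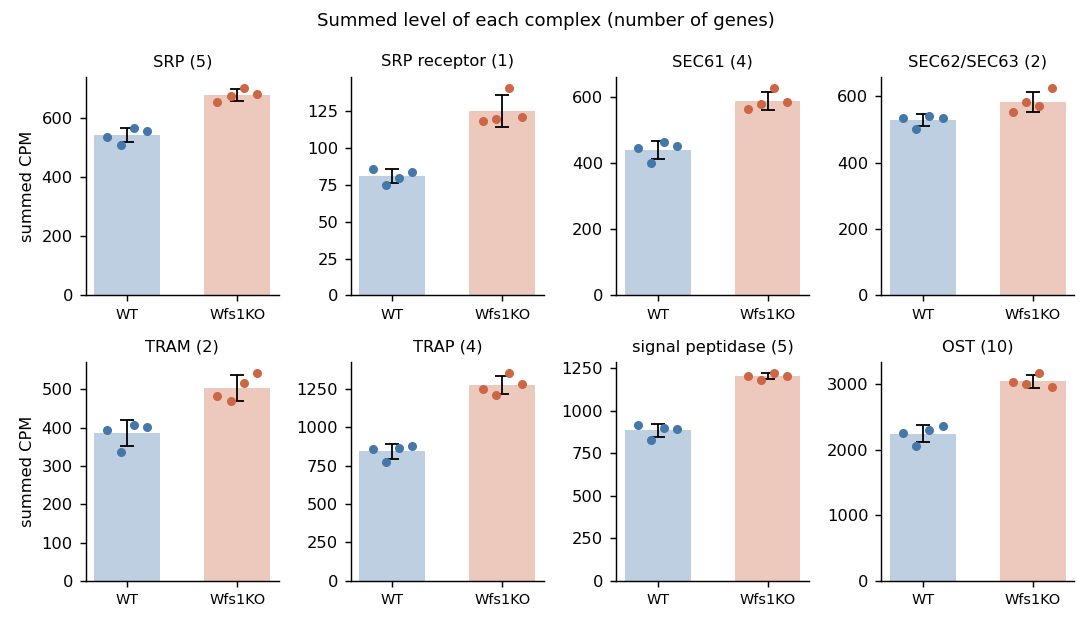
Summed CPM of the genes of each complex by genotype. Bars are means from 0, error bars are the SD over 4 libraries and points are the libraries; in every panel the 4 Wfs1KO points lie above the 4 WT points, with the narrowest gap in SEC62/SEC63 and a ratio of means of 1.51 in TRAP.

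Every signal peptidase gene rose, with a median log2 fold change of 0.43. Signal peptidase is an assembly of a catalytic subunit, which is either SEC11A or SEC11C, with the accessory subunits SPCS1, SPCS2 and SPCS3. Sec11c had the smallest adjusted p of the 33 genes. It stood at 92.8, 87.1, 89.8 and 89.7 CPM in WT and 143, 149.8, 133 and 135 CPM in Wfs1KO, with little spread in either genotype and a wide gap between them (1.56-fold, log2 fold change 0.64, SE 0.05, adjusted p = 3.58e-06). The other catalytic gene, Sec11a (NM_019951, chromosome 7, 80915379 to 80947550, minus strand), stood at 58.8, 51.9, 54.5 and 57.2 CPM in WT and 81.7, 84.7, 80.6 and 73.3 CPM in Wfs1KO. It too had no overlap between genotypes (1.44-fold, log2 fold change 0.53, SE 0.06, adjusted p = 5.27e-05).

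The accessory subunit genes rose by log2 fold changes of 0.39 to 0.43. Spcs3, which is needed for the activity of the complex, was the highest of the 3 in CPM (394 ± 24.2 CPM in WT and 531 ± 29.2 CPM in Wfs1KO, SD, n = 4, adjusted p = 4.30e-04). Spcs2 averaged 252 ± 13 CPM in WT and 329.9 ± 10 CPM in Wfs1KO (SD, n = 4, adjusted p = 2.97e-04), and 23.4% of its transcript is nearly identical to that of the pseudogene Spcs2-ps. Spcs1 averaged 92.9 ± 5.57 CPM in WT and 122 ± 5.99 CPM in Wfs1KO (SD, n = 4, adjusted p = 3.42e-04). In all 3 genes every Wfs1KO library lay above every WT library.

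Of the 10 OST genes 8 rose, with a median of 0.45 over the 10. The OST exists in a form with the catalytic subunit STT3A, which works beside the channel on chains as they enter, and a form with STT3B, which can act later and carries TUSC3 or MAGT1. Among the subunits that both forms share, Rpn2 (NM_019642, chromosome 2, 157279098 to 157326318, plus strand), which encodes ribophorin II, stood at 468, 432, 466 and 478 CPM in WT and 635, 648, 650.4 and 591 CPM in Wfs1KO. The genotypes were far apart for their spread (1.37-fold, log2 fold change 0.45, SE 0.06, adjusted p = 1.68e-04). Ddost (NM_007838, chromosome 4, 138304738 to 138312611, plus strand), which encodes another shared subunit, stood at 362, 342, 386 and 406 CPM in WT and 517, 508, 524 and 482 CPM in Wfs1KO. Again no library crossed over (1.36-fold, log2 fold change 0.44, SE 0.06, adjusted p = 3.18e-04). Rpn1, the ribophorin I gene, averaged 290.2 ± 32.2 CPM in WT and 424 ± 34.5 CPM in Wfs1KO, and Dad1 averaged 92.2 ± 4.35 CPM in WT and 122 ± 9.08 CPM in Wfs1KO (SD, n = 4 each). Both passed (adjusted p = 4.63e-04 and 4.35e-04).

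The subunits that tie the OST to the channel had the largest log2 fold changes within the complex. Ostc (NM_025509, chromosome 3, 130695917 to 130709444, minus strand), which encodes a subunit of the STT3A form, stood at 159, 133, 159.8 and 163 CPM in WT and 235, 228, 248 and 222 CPM in Wfs1KO. WT replicate 2 was lowest, and the genotypes did not overlap (1.52-fold, log2 fold change 0.60, SE 0.07, adjusted p = 4.30e-05). Krtcap2 (NM_025327, chromosome 3, 89246438 to 89249729, plus strand), which encodes the other such subunit, stood at 50.9, 49.6, 49.8 and 51.3 CPM in WT and 79.6, 86.3, 73.8 and 68.6 CPM in Wfs1KO. The WT libraries were almost equal and the Wfs1KO libraries spread more widely above them (1.53-fold, log2 fold change 0.61, SE 0.07, adjusted p = 3.61e-05). Of its exon bases over all annotated transcripts 15.7% overlap Trim46 on the other strand.

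Krtcap2 was the only 1 of the 24 genes with a window that held the ERSE-II element, ATTGG and CCACG parted by 1 base, which stood in 0.0444% of all genes. Its start region from RefSeq on GRCm38.p6 is shown for that reason, with the element in capitals.
Krtcap2 (chr3:89246223-89246522, plus strand): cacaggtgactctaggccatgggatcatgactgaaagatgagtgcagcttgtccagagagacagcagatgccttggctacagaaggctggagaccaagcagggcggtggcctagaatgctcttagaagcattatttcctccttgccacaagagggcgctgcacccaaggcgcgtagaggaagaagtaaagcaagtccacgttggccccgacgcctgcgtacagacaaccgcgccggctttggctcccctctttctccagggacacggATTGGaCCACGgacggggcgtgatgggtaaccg
The match begins 17 bases after the annotated start of this window. The ATTGG within it is also the only CCAAT box of the window, read on the other strand. The other RefSeq start of Krtcap2 lies upstream, where the counted entry begins, and its window does not reach the element. That window ends at base 89246487, just before the element, so the match was found only from the other annotated start. To which start the element belongs was not tested.

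The catalytic subunits differed in size of change. Stt3a (NM_008408, chromosome 9, 36732413 to 36767578, minus strand) stood at 281, 249.6, 263 and 266 CPM in WT and 333, 329.8, 377 and 375 CPM in Wfs1KO, without overlap (1.34-fold, log2 fold change 0.42, SE 0.06, adjusted p = 4.79e-04). Stt3b (NM_024222, chromosome 9, 115242582 to 115310421, minus strand) stood at 158, 131, 160.4 and 157 CPM in WT and 173, 157, 187 and 185 CPM in Wfs1KO. Wfs1KO replicate 2 lay inside the WT range, and the gene did not pass (log2 fold change 0.21, SE 0.07, adjusted p = 0.0593, 95% interval 0.05 to 0.37). It passed without that library (adjusted p = 0.0301) and with the replicate number as a block (0.0127).

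The oxidoreductase subunits of the STT3B form also differed. Magt1 (NM_001190409, chromosome X, 105968085 to 106011899, minus strand) stood at 289, 272, 300.4 and 306 CPM in WT and 383, 379.8, 411 and 423 CPM in Wfs1KO, and it rose (1.37-fold, log2 fold change 0.45, SE 0.06, adjusted p = 1.68e-04). Tusc3 (NM_030254, chromosome 8, 39005867 to 39130817, plus strand) stood at 118, 105, 114 and 115 CPM in WT and 114, 119, 120.4 and 117 CPM in Wfs1KO. Its genotypes overlapped, with a log2 fold change of 0.05 (95% interval -0.06 to 0.17, adjusted p = 0.534).

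Alternative subunits were then compared inside each library, where a ratio of reads does not depend on library scaling. The measure was the log2 ratio of counts with 0.5 added to each, tested over 5 pairs by an exact two-sided permutation test whose smallest possible p with 4 against 4 is 0.0286. The Sec61a1 to Sec61a2 ratio was 4.057, 3.824, 4.145 and 4.114 in WT and 4.374, 4.378, 4.598 and 4.395 in Wfs1KO. It moved toward Sec61a1 by 0.40 (exact p = 0.0286, adjusted over the 5 pairs 0.0357). Reads of Nudt5 that were counted for Sec61a2 would enter this ratio. The Tram1 to Tram2 ratio was 7.49, 6.99, 7.58 and 6.89 in WT and 7.63, 7.73, 8.29 and 8.04 in Wfs1KO. It moved toward Tram1 by 0.69 (exact p = 0.0286, adjusted 0.0357), and by 0.44 in replicates 1 and 2 alone and 0.93 in replicates 3 and 4 alone.

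The Stt3a to Stt3b ratio was 0.83, 0.93, 0.71 and 0.77 in WT and 0.94, 1.07, 1.01 and 1.02 in Wfs1KO. It moved toward Stt3a by 0.20 (exact p = 0.0286, adjusted 0.0357), and by 0.13 in replicates 1 and 2 alone and 0.28 in replicates 3 and 4 alone. The Tusc3 to Magt1 ratio was -1.29, -1.38, -1.39 and -1.41 in WT and -1.75, -1.67, -1.77 and -1.86 in Wfs1KO. It fell by 0.40, toward Magt1 (exact p = 0.0286, adjusted 0.0357). In these 4 pairs no Wfs1KO library overlapped WT. The Sec11a to Sec11c ratio was -0.66, -0.75, -0.72 and -0.65 in WT and -0.81, -0.82, -0.72 and -0.88 in Wfs1KO. These ranges met, and the difference of -0.11 did not pass (exact p = 0.0571, adjusted 0.0571). The test treats the 8 samples as exchangeable. Permuting only within same-numbered samples cannot give a p under 0.125, and only within replicates 1 and 2 and within replicates 3 and 4 none under 0.0556; all 5 pairs stood at these limits, so no ratio could pass under either. With 1 library left out the exact p stayed at 0.0286 for Sec61a1 to Sec61a2 and Tusc3 to Magt1. It rose to 0.0571 for Stt3a to Stt3b without any 1 of the Wfs1KO libraries. For Tram1 to Tram2 it was 0.0571 to 0.0857 without WT replicate 2 or 4 or any 1 of the Wfs1KO libraries. For Sec11a to Sec11c it was 0.0286 without Wfs1KO replicate 3. A ratio shows that the members of a pair changed unequally, not that either was constant.

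**Figure D4:**
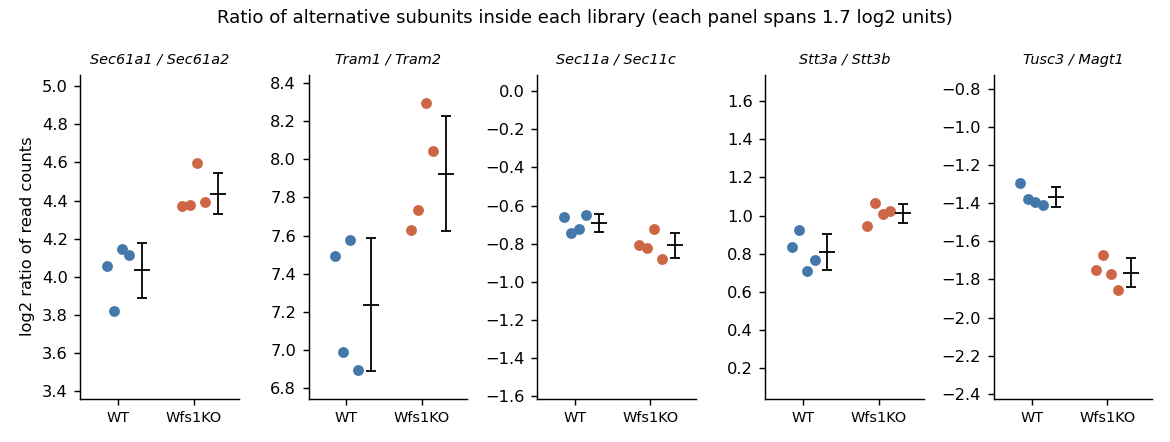
Log2 ratio of read counts of alternative subunits in each library, by genotype, with the mean and SD over 4 libraries beside the points. Each panel spans 1.7 log2 units at its own level; the genotypes part in 4 panels and meet in that of Sec11a and Sec11c.

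Levels of different subunits are comparable only per length, so CPM were divided by the exon length in the count table (CPM per kb, WT mean ± SD, n = 4). That is 1 annotated length per gene, and the order depends on it. The counted lengths of Tram2 (1377 bases), Stt3a (2677) and Krtcap2 (516) are well below those of their matched GENCODE transcripts (6492, 5867 and 1172). Levels per length that involve these genes are therefore uncertain. In the OST, Ddost (179.6 ± 13.3) and Rpn2 (171 ± 7.49) were highest and did not differ beyond their spread, followed by Ostc (146 ± 12.9) and Dad1 (133 ± 6.29). Stt3a (98.9 ± 4.78), Tusc3 (101 ± 5.06) and Krtcap2 (97.7 ± 1.61) lay together in the middle, Rpn1 stood at 80 ± 8.88 and Stt3b was lowest (36 ± 3.21). Per length Stt3a was 2.75 times Stt3b in WT and 3.16 times in Wfs1KO, and Tusc3 was 1.55 and 1.18 times Magt1 (64.7 ± 3.31 CPM per kb in WT). In signal peptidase, Sec11c (118 ± 3.04) and Spcs3 (114 ± 6.99) were alike within their spread and Sec11a was lowest (50.3 ± 2.75). In TRAP, Ssr4 led (165 ± 7.04), Ssr2 (115 ± 8.19) and Ssr3 (101 ± 7) followed, and Ssr1 was lowest (30.9 ± 2). Ssr1 and Ssr3 had similar CPM in WT (288 and 291), and their counted lengths are 9296 and 2878 bases.

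The channel had 1 dominant alpha subunit gene. Sec61a1 stood at 120.2 ± 9.55 CPM per kb in WT and Sec61a2 at 9.39 ± 0.203, and Tram1 stood at 131 ± 11.5 beside 1.85 ± 0.416 for Tram2. Sec62 (77.8 ± 3.63) was above Sec63 (36.7 ± 2.13). In the SRP, Srp14 was highest (87.4 ± 5.2), Srp68 (66.9 ± 4.69) and Srp72 (65.2 ± 2.21) were alike within their spread, and Srp9 (34 ± 1.55) and Srp19 (28.3 ± 1.8) were lowest. Srprb stood at 27.2 ± 1.63.

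Genes that work beside these complexes rose in some steps and mostly did not pass in others. Over 98 tested genes in 9 lists, 48 rose, 1 fell and 49 did not pass, with a median log2 fold change of 0.22, against the 10.4% and 8.49% of all tested genes that rose and fell. Of 6 further SRP and OST subunit genes 5 rose (median 0.40). They were led by Srpr, the alpha subunit of the SRP receptor (359.9 ± 24.9 CPM in WT and 551 ± 20.7 CPM in Wfs1KO, SD, n = 4, log2 fold change 0.61), with Tmem258 (0.45), an OST subunit gene, and Srp54c (0.40). The entries of Srp54b (55230168 to 55263480) and Srp54c (55230478 to 55263020) overlap on the plus strand of chromosome 12. Their counts were almost the same, 234 to 689 and 233 to 688 reads per library, so both rows largely hold the same reads. Both are included in the counts and medians of this list and of the 98 genes. Srp54a, which is near-identical, may share reads with them. Ost4 stood at 0.14 (adjusted p = 0.238).

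Of 10 genes of signal peptide peptidase and of channel partners 5 rose, 1 fell and 4 did not pass (median 0.18). H13, the gene of signal peptide peptidase, which cuts signal peptides after signal peptidase has released them, rose from 162 ± 14.7 to 272 ± 16 CPM (SD, n = 4, 1.68-fold, log2 fold change 0.74, SE 0.07, adjusted p = 9.38e-06). Rrbp1, a ribosome-binding protein gene of the rough ER, had a log2 fold change of 0.45 and Ckap4 of 0.34. Tmem147, whose product binds the channel in a complex with those of Ncln and Nomo1, was the gene that fell, by 0.26 on the log2 scale (adjusted p = 0.0111). In the same complex Nomo1 rose (0.31) and Ncln stood at 0.12 (adjusted p = 0.217). Tmem147, Nomo1, Ncln, Ost4 and Bag6 were named after their values were seen.

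On the lumenal side of the channel 8 of 9 genes rose (median 0.56). Sdf2l1, an ER chaperone cofactor gene, had the largest log2 fold change (1.0, SE 0.06), followed in adjusted p by Dnajc3 (0.66), a BiP co-chaperone gene, and Hspa5 (0.59), the gene of BiP. Later glycan handling also rose in part. Of 13 genes of N-glycan trimming and quality control 9 rose and 4 did not pass (median 0.31), with the glucosidase II beta subunit gene Prkcsh at 0.56, Edem2 at 0.52 and the lectin chaperone gene Calr at 0.45. Of 32 genes that build the lipid-linked glycan 15 rose and 17 did not pass (median 0.22). Dhdds, which encodes a subunit of the enzyme that makes the dolichol precursor, was highest by adjusted p (0.63, 6.27e-06), with Alg5 at 0.57 and Gmppb at 0.49.

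Other routes into the membrane showed few calls. Of 10 genes of the ER membrane protein complex, an insertase for membrane proteins, only Emc7 rose (0.22, adjusted p = 0.0234) and 9 did not pass (median 0.04). Of 7 genes of the GET route, which inserts tail-anchored proteins, 0 passed edgeR's test (median 0.08), while 1 was higher and 1 lower at an unadjusted p under 0.05. Bag6, at -0.17 (adjusted p = 0.0569), passed with DESeq2 and with limma-voom. Whether these lists differ from the 33 genes was not tested. Of 4 genes acting on nascent chains in the cytosol, Btf3 (0.45) and Naca (0.20) rose (median 0.15). Of 7 transcription factor and sensor genes of the unfolded protein response, Atf6 (0.31), Atf4 (0.35) and Eif2ak3 (0.42) rose and 4 did not pass (median 0.31). All 7 log2 fold changes were positive, 5 of them with an unadjusted p under 0.05 in edgeR's test. The largest, 0.77, belonged to a gene that did not pass.

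**Figure D5:**
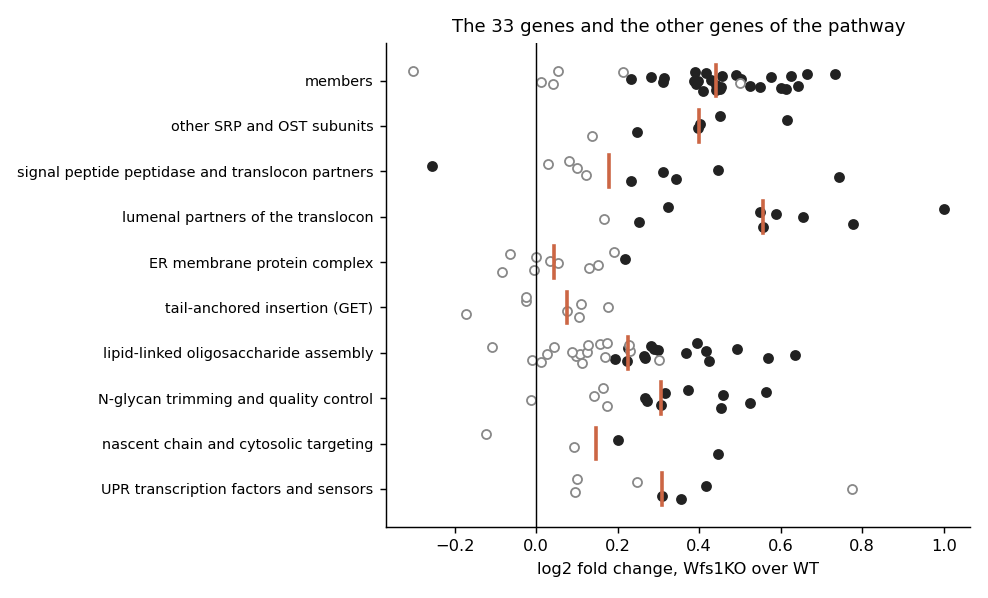
Log2 fold change, Wfs1KO over WT, of the 33 genes (top row) and of the 98 tested genes of 9 related lists. Filled points have an adjusted p under 0.05, open points do not, and each orange bar is the median of its row; the medians run from 0.04 for the ER membrane protein complex to 0.56 for the lumenal partners.

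Reads were counted with no strand option set, and 12 of the 33 genes share exon bases with a gene on the other strand, in GENCODE M21. Besides Sec61a2 and Krtcap2, the largest such shares were 16.3% of the exon bases of Spcs1 (with Glt8d1) and 14.1% of those of Srp9 (with Gm17968). These are shares of the exons of all annotated transcripts of a gene together, not of the counted entry alone. The other 8 are Sec61a1, Sec62, Sec63, Ssr2, Spcs3, Sec11a, Rpn1 and Rpn2. In the GENCODE transcript matched to the counted RefSeq entry, shared stretches of at least 100 bases covered 37.1% of Sec61a2, 21.6% of Spcs1 and 17.4% of Sec61a1. They covered 20.4% of Krtcap2, whose matched transcript (1172 bases) is longer than its counted length (516 bases). For Srp9, Ssr2, Spcs3 and Sec11a no such stretch of the overlapping gene was found there. Where a shared stretch lies in counted exons, its reads cannot be told apart.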

How the data were processed

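Poly(A) RNA-seq of 8 islet samples was analysed from the table of exon counts that the authors deposited. Per the submitters' processing notes, reads were demultiplexed with bcl2fastq, aligned to mm10 with STAR 2.6.0a and counted with HOMER 4.11.1. Per the file headers, the table holds reads in exons per gene, not normalized, and the command sets no strand option. The log2 fold changes and adjusted p-values that the authors deposited, from DESeq2 per the processing notes, were used only where named. The number of other per-sample columns in the count table was 0, and no 2 libraries held identical counts.

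Genes passing edgeR's filterByExpr (minimum count 10, minimum total 15) were tested with edgeR 4.0.16 in R 4.3.3 (TMM scaling, robust quasi-likelihood F-test), which left 15733 genes. Adjusted p-values are Benjamini-Hochberg values over all of these, with a threshold of 0.05, and each SE was taken as the log2 fold change divided by the square root of F. CPM use TMM-scaled library sizes. Total exon counts per library were 15810830 to 27057617, the 33 genes had at least 28 reads in every library, and the common biological coefficient of variation between samples was 10.7%. The code was tested on simulated data. The members, lists and tests were chosen with earlier results of these data known, so they support nothing by their choice. Values in every library were given for the 12 called genes with the smallest adjusted p, both genes of each of 5 pairs and the highest gene per length of each complex, and for each related list the 3 called genes with the smallest adjusted p were named. Library values of Sec61g are given outside this rule, chosen after they were seen. The ratio tests restricted to same-numbered samples or sets, and those with a library left out, were added after seeing the data. Hm13 is listed as H13.

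Same-numbered WT and Wfs1KO samples deviated together from their genotype means, with correlations across genes of 0.153, 0.443, 0.269 and 0.188 (genes are not independent replicates), all over 0.1, and were taken as paired for the block. Differently numbered samples correlated by 0.138 to 0.507 within replicates 1 and 2 or 3 and 4, and by -0.539 to -0.0619 between these sets, so the correlations show the sets and do not single out same-numbered samples. What the numbers mark is not given. The block was an alternative, as were DESeq2 1.42.0, limma-voom with quality weights (limma 3.58.1), edgeR with the size factors of DESeq2, a covariate for the acinar score, removal of the 20 most abundant genes, other filters and thresholds, replicates 1 and 2 or 3 and 4 alone, Wfs1KO replicates 3 and 4 left out and each library left out. Overlaps used GENCODE M21 (GRCm38) and promoter windows RefSeq on GRCm38.p6. Coordinates are in mm10.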

Additional observations from a re-analysis of the deposited data

Results flagged for a closer look

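Of 90 groups of 4 libraries examined, 8 held a library whose gap to its nearest neighbour was large for the group's range by Dixon's criterion, where chance flags about 1 in 20 groups. In 5 of them the library was WT replicate 2, which was low. It held 358 CPM of Spcs3 against 401 to 409 CPM in the other WT libraries, 131 CPM of Stt3b against 157 to 160.4 CPM, and 133 CPM of Ostc against 159 to 163 CPM. Its SEC62/SEC63 sum was 501 CPM against 535 to 541 CPM, and its TRAP sum was 774 CPM against 861 to 876 CPM. Wfs1KO replicate 3 was high in Srprb, at 141 CPM against 119 to 121 CPM in the other Wfs1KO libraries. The same library was high in the log2 ratio of Sec61a1 to Sec61a2, at 4.598 against 4.374 to 4.395. Wfs1KO replicate 4 was low in Sec61g, at 3.21 CPM against 4.04 to 4.16 CPM. Without WT replicate 2 the median log2 fold change of the 33 genes was 0.41, and 26 rose.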

How the results depend on the processing

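The number of the 33 genes that rose was 25 to 29 in every alternative run, 26 to 28 when 1 library was left out, and 0 fell in any. In all alternatives 24 of the 27 rising genes passed, the exceptions being Srp14, Srp72 and Sec63, and all 27 kept their direction. With the replicate block 28 rose (Stt3b was added) and the members' median was 0.44, and 49 of the related genes were called, as without it, of which 3 were lost and 3 gained. The block changed no other call of the 33 genes. In replicates 3 and 4 alone the median was 0.35 for SEC61 and -0.11 for TRAM, which rests on 2 genes, and Stt3a to Stt3b moved by 0.28 (0.13 in replicates 1 and 2 alone). Sec62 turned to -3.0e-04 with DESeq2, -2.3e-04 with its size factors, -0.0092 with the 20 most abundant genes left out, -0.055 in replicates 3 and 4 alone, -0.0127 without WT replicate 2, -0.0082 without Wfs1KO replicate 2 and -0.0193 without Wfs1KO replicate 4 (up to 0.0424, without WT replicate 4). Sec61a2 was -0.0080 in replicates 1 and 2 alone. The median log2 fold change of all tested genes was 0.01, -0.0084 with the 20 most abundant genes left out and -0.0027 in replicates 3 and 4 alone. The called genes numbered 2970 of all tested, 1846 in replicates 3 and 4 alone and 1744 at an adjusted p under 0.01. Calls among the related genes ranged from 33 to 60, against 49. The cause of these shifts was not tested. Leaving out 1 library gave 0.56 to 0.80 for the Tram1 to Tram2 ratio and 0.17 to 0.24 for Stt3a to Stt3b, with exact p-values of 0.0286 to 0.0857 and 0.0286 to 0.0571; for Sec61a1 to Sec61a2 it gave 0.33 to 0.44 and for Tusc3 to Magt1 -0.43 to -0.36, each with an exact p of 0.0286 throughout. Sec11a to Sec11c gave -0.14 to -0.0914 (exact p 0.0286 to 0.114). With samples permuted only within same-numbered samples (replicate block), or only within replicates 1 and 2 and replicates 3 and 4, the differences stay 0.40, 0.69, 0.20 and -0.40 by construction and no call can pass. Depth limits Sec61g and Tram2, which had under 100 reads in some libraries.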
